A study of Arabidopsis thaliana with 3 samples.

Results

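The microarray carried 33 spots whose TAIR code belongs to an organelle genome: 32 with an ATMG code, of the mitochondrial genome, and 1 with an ATCG code, of the chloroplast genome. They were chosen by the prefix of that code, from 26017 loci with a spot on an array of 30000 spots, and each of the 33 had 1 spot. The array compared rosette leaves of 5-week-old Arabidopsis thaliana Col-0 plants, either wild type or transgenic AhNF-YC-OE (the overexpressor below), which overexpresses an NF-YC gene, a subunit of the CCAAT-binding nuclear factor Y. On each of 3 arrays with 2 colours, wild-type RNA was in the Cy3 channel and AhNF-YC-OE RNA in the Cy5 channel, with no dye swap. One array held plants under normal growth, 1 held plants after 5 days of water stress, and 1 held plants 24 h after rewatering that followed 8 days of water stress, called recovery here (protocols filed with the remaining arrays mention 5 days). Growth was at 22 °C, in days of 16 h light and 8 h dark. The promoter, the number of transgenic lines, the pooling of plants and the primer used for cDNA are not stated in the labels, and the transgene itself was not analysed here. With 1 array per condition no value of a condition has a replicate and no test within a condition was possible. Array and condition cannot be told apart, and neither can genotype and dye. In leaf RNA, fewer cells of a type and less RNA per cell cannot be told apart.

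Plant mitochondria keep a small genome that encodes subunits of the respiratory complexes and of ATP synthase, a few ribosomal proteins, proteins of cytochrome c maturation, and many open reading frames (ORFs) whose function is mostly unknown. The chloroplast genome encodes parts of the photosystems, of Rubisco and of the plastid gene expression machinery. In Arabidopsis a long insertion of mitochondrial DNA lies on nuclear chromosome 2, so that many mitochondrial genes have a nearly identical nuclear copy.

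The 32 ATMG spots covered part of the mitochondrial genome. Of these, 11 carried a gene name and 21 were ORFs or unnamed. By role, ATP synthase was represented by ATP1 (ATMG01190), ATP6 (ATMG00410) and ATP8 (ATMG00480), complex I by NAD3 (ATMG00990), complex III by COB (ATMG00220), the apocytochrome b, and complex IV by COX3 (ATMG00730). CCB256 (ATMG00900) stood for cytochrome c maturation, and RPL2 (ATMG00560), RPL5 (ATMG00210), RPS7 (ATMG01270) and RPSL2 (ATMG00980) for the ribosome. RPSL2 is described in the array annotation as ribosomal protein L2, and 10 of the 11 named members, all but RPSL2, matched a mitochondrial gene of the RefSeq table (assembly TAIR10.1), which lists 33 protein-coding ones. The 1 ATCG spot, ATCG00850, had neither a name nor a description. Of 129 RefSeq plastid genes, none of rbcL, psbA, psaA, psaB, rpoB or accD had a spot with an ATCG code, nor did mitochondrial cox1 or nad5, so chloroplast-encoded photosystem, Rubisco and polymerase genes were not measured here.

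The array annotation gives each spot a second code, from TIGR release 5, and for these members that code was nuclear. Of the 32 ATMG spots, 31 carried a code on chromosome 2, all inside one stretch of 180 RefSeq loci. ATMG01250 (ORF102) carried the chromosome 3 locus AT3G04880 (DRT102), and ATCG00850 carried the chromosome 5 locus AT5G44040. From the 31 spots with a chromosome 2 code, the organelle transcript and that of its nuclear copy cannot be told apart. Whether AT3G04880 and AT5G44040 share sequence with the organelle loci was not tested. Another 17 loci of the same stretch had a spot and kept a nuclear code, and they serve below as the nearest comparison. The members also shared their place on the array: 31 of the 33 were printed in rows 7 or 8 of their block, as were all 17 of the other spots of the stretch, and all 33 in the second or the fourth column of blocks.

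The annotation itself was checked on the arrays, and spots annotated to the same transcript did not agree. Spots annotated to the same transcript differed from each other about as much as any gene spots did: over 1464 such pairs the SD between spots of wild-type log2 level under normal growth was 2.50, against 2.61 over all gene spots, and Pearson's r between them was 0.0557. For comparison, 236 spots of 22 control features spread by an SD of 0.525 within a feature. Probe sequences were not available, so the spots of a transcript may carry different probes. Their spread in level is then not like that of repeated control spots. The genotype ratio correlated between paired spots at r = 0.110 (normal growth), 0.104 (water stress) and 0.193 (recovery), and the wild-type change from normal growth to water stress at r = 0.0997. These r values run across pairs of spots, which share the array and are not independent replicates. As a description of the tissue label, 13 nuclear leaf markers of photosynthesis lay between percentile 16.9 and 97.5 of gene spots in wild type under normal growth (median 53.2), and 7 seed storage markers between 5.14 and 83.2 (median 70.5); these are levels of different probes and are not weighed against each other. Because of the pairs of spots, the names below are those of the array annotation, and the values are those of the spots that carry them.

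Values also differed where an organelle-coded spot and a nuclear-coded spot shared a TIGR code, though their TAIR codes name different loci. The ORF102 spot read 10671 in wild type under normal growth and the DRT102 spot, with the same TIGR code, read 578, and their log2 changes to water stress in wild type were -1.80 and -0.042. The ATCG00850 spot had log2 ratios (overexpressor over wild type) of 0.0006, -0.27 and -0.14, and the AT5G44040 spot had 0.33, 1.33 and 0.68. In wild type the ATCG00850 spot was higher under water stress by 1.47 on the log2 scale, where the AT5G44040 spot stood at -3.22. In both pairs, spots of 1 TIGR code thus differed in level or in direction. Many of these readings were low. The AT5G44040 spot read 131 in wild type and 84.8 in the overexpressor under water stress, and 95.1 and 72.8 in recovery. These were under the 95% limit of empty spots given below. Under normal growth the DRT102, ATCG00850 and AT5G44040 spots were under that limit in both channels.

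The organelle-coded spots were mostly dimmer than the middle gene spot of the array. All 33 read above their local background in both channels on all 3 arrays. The median ATMG spot read 1533, 1035 and 879.9 in wild type (in the order normal growth, water stress, recovery), against 4208, 1422 and 1399 for all gene spots. In the overexpressor it read 1126, 513 and 492, against 3042, 812 and 962. The median ATMG spot stood at percentile 36.1, 44.4 and 42.1 of gene spots in wild type and at 37.0, 43.8 and 40.3 in the overexpressor. The 17 spots of the chromosome 2 stretch with a nuclear code stood at 38.1, 30.1 and 45.1 in wild type, on both sides of the ATMG values. Percentiles rank spots, and levels of different probes are not compared as transcript levels.

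Single members spread over most of the intensity range. COB read 14039.7, 7953 and 7041 in wild type and 11854, 5711 and 5798 in the overexpressor, and RPL2 read 19794, 9943 and 11794 in wild type and 18666, 8302 and 8812 in the overexpressor, in the order normal growth, water stress, recovery. ORF262 (ATMG01090) read 18150.3, 12052 and 5631 in wild type and 15518, 11659 and 5394 in the overexpressor. These were among the brightest ATMG spots in both channels on every array. At the other end, CCB256 read 161, 299 and 239 in wild type and 142, 88 and 109 in the overexpressor, and ORF106G (ATMG01150) read 202, 391 and 241 in wild type and 154, 71.9 and 107 in the overexpressor. The ATCG00850 spot read 159, 533 and 239 in wild type and 134, 148 and 107 in the overexpressor, which placed it with the dim ATMG spots.

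Empty spots set a floor that differed between arrays. The 95% limit of 510 empty spots was 5668 in wild type and 4412 in the overexpressor under normal growth, 400 and 222 under water stress, and 260 and 143 in recovery. The number of members over this limit in at least 1 channel was 9, 26 and 29 of 33 on the respective arrays. The 9 over it on all 3 arrays were COB, COX3, ATP8, RPL2, ORF102, ORF102B (ATMG00540), ORF136A (ATMG01300), ORF160 (ATMG00550) and ORF262. CCB256, ORF106G and ORF215B (ATMG00920) were under it on each. Wild-type readings of COX3 were 9186, 1721 and 1876, and those of ATP8 were 13345, 3259.6 and 3127.

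**Figure D1:**
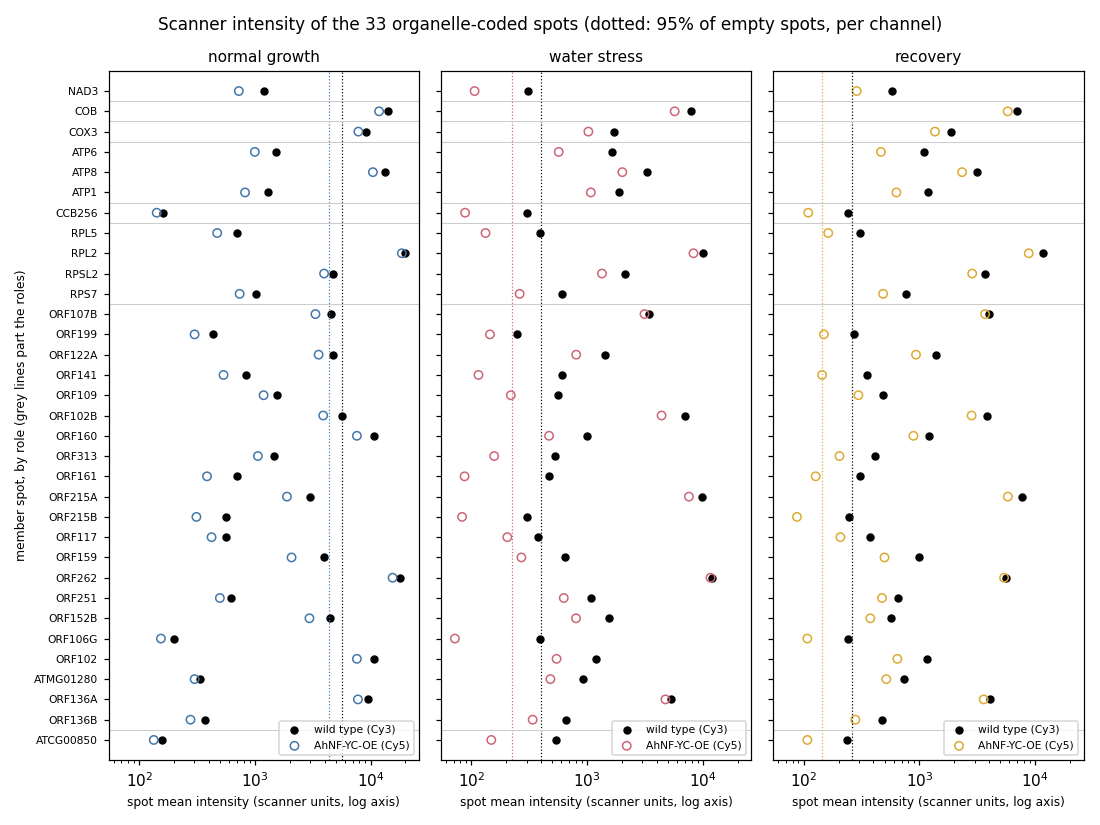
Spot mean intensity of the 33 organelle-coded spots in scanner units on a log axis, with filled points for wild type (Cy3) and open points for AhNF-YC-OE (Cy5), 1 panel per array. Dotted lines mark the 95% limit of the empty spots in each channel, which 9, 26 and 29 members exceeded in at least 1 channel, from left to right.

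The genotype comparison asks whether these transcripts differ between AhNF-YC-OE and wild type within a condition. On each array the ATMG spots centred near the middle of all loci. Their median log2 ratio (overexpressor over wild type) was -0.054 on the normal growth array, 0.021 on the water stress array and -0.003 on the recovery array. The medians over all loci lay between -0.0064 and 0.003. The ratio of a spot is relative to spots of like brightness on its array, since the overexpressor channel was dimmer throughout (812 against 1422 for the median gene spot under water stress), so a spot can read lower in the overexpressor and still have a ratio above 0. The ATMG ratios ran from -0.43 to 0.26, from -0.77 to 1.01 and from -0.59 to 0.26. The 17 nuclear-coded spots of the chromosome 2 stretch had medians of 0.014, -0.035 and 0.056. Within a control feature the SD of the log2 ratio was 0.115, 0.177 and 0.135, which is the technical spread on 1 array and holds no spread between plants. The control features did not centre on 0: the median of their log2 ratios was 0.139, 0.134 and 0.108. The cause was not tested.

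Under normal growth no ATMG spot was 1.5-fold apart between genotypes (0.585 on the log2 scale), while 1.36% of all loci were at least that much higher and 0.508% lower. Under water stress 2 of 32 ATMG spots were at least 1.5-fold higher, beside 1.82% of all loci, and 4 were lower, beside 3.53%. In recovery none was higher, beside 0.45%, and 1 was lower, beside 1.67%. In all, 26 of 32 ATMG spots lay within 1.5-fold on all 3 arrays and 6 lay past it on at least 1. The share of all loci past it on at least 1 array is not given here, so this count has no background beside it. The ATCG00850 spot lay within 1.5-fold on all 3 arrays. With median centring in place of loess it did not, at -1.06 under water stress and -0.59 in recovery.

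The mean genotype ratio over the 3 arrays could be tested, with limma on all loci, as an average over 3 conditions in 1 dye orientation. Any dye effect of a spot is part of that mean and cannot be told apart from genotype. No ATMG spot had an adjusted p under 0.05, beside 0.00385% of all loci, and 7 of 32 had an unadjusted p under 0.05, as did 5651 of all 25997 loci. The smallest p was that of ORF161 (ATMG00610), with a mean log2 ratio of -0.45 (SE 0.087, lower on 3 of 3 arrays) and a limma adjusted p of 0.15. ATP6 followed with -0.44 (SE 0.12, limma adjusted p = 0.151) and ORF141 (ATMG00500) with -0.43 (SE 0.12, limma adjusted p = 0.155), both also lower on 3 of 3 arrays. With median centring, 6 ATMG spots passed, beside 5600 of 25997 loci.

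ATP6, a membrane subunit of ATP synthase, was the only member past 1.5-fold on more than 1 array. Its spot read 1518, 1629 and 1094 in wild type and 999, 568 and 465 in the overexpressor. The log2 ratios were -0.082, -0.66 and -0.59, so the overexpressor was near wild type under normal growth and below it on the other arrays. With loess fitted within each print block these became 0.084, -0.52 and -0.37, inside 1.5-fold throughout. The other subunits stayed within 1.5-fold: ATP1 had -0.15, -0.063 and -0.31, and ATP8 had -0.062, -0.11 and -0.00050.

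The highest ratio of any member was that of ORF199 (ATMG00370), an ORF of unknown function, under water stress. Its spot read 432, 249 and 271 in wild type and 301, 144 and 149 in the overexpressor, and its log2 ratios were -0.072, 1.01 and 0.093. The water stress reading was not over the 95% limit of empty spots in either channel, and with print-block loess that ratio was 0.50. ORF117 (ATMG00970) was the other spot higher in the overexpressor under water stress. It read 559.7, 373 and 373 in wild type and 422, 204 and 207 in the overexpressor, with ratios of 0.064, 0.76 and 0.11, was likewise under the limit of empty spots in both channels, and stood at 0.43 under water stress with print-block loess. With median centring in place of loess, neither was higher in the overexpressor: ORF199 stood at -0.022 and ORF117 at -0.049.

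The other 3 of the 4 lower spots under water stress were ORFs, and they were below wild type on every array. ORF141 read 836, 602 and 355 in wild type and 536, 115 and 144 in the overexpressor, and its ratios were -0.14, -0.77 and -0.37. ORF161 read 706, 467 and 307 in wild type and 386, 87.1 and 127 in the overexpressor, with ratios of -0.38, -0.63 and -0.34. ORF106G read as given above, with ratios of -0.058, -0.59 and -0.17. Under water stress the overexpressor readings of these 3 (115, 87.1 and 71.9) were under the empty-spot limit of that channel, 222. In these 3, and in ATP6, the lowest ratio was that of the water stress array. Under print-block loess the water stress ratios were -0.35 for ORF141, -0.67 for ORF161 and -0.56 for ORF106G, so that ORF161 alone of the 6 members stayed past 1.5-fold. Of the 6, 5 belonged to the dimmer 16 ATMG spots of the water stress array and 1 to the brighter 16.

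**Figure D2:**
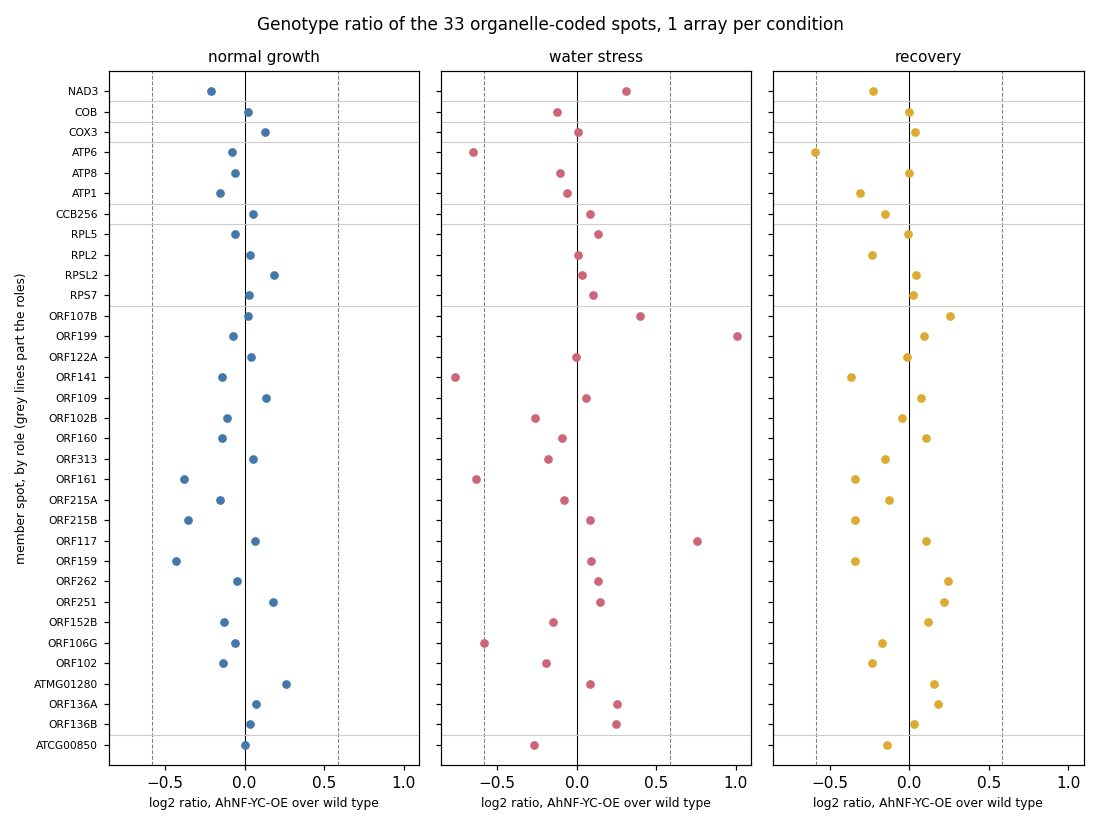
Log2 ratio (overexpressor over wild type) for the 33 organelle-coded spots on each of the 3 arrays, 1 point per spot, ordered by role. Dashed lines mark 1.5-fold in either direction, which 6 spots passed under water stress and ATP6 passed in recovery.

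Respiratory chain and ribosomal members stayed closer to equality. NAD3, a subunit of complex I, had log2 ratios of -0.21, 0.31 and -0.23, and COB had 0.019, -0.13 and -0.00040. COX3, a subunit of cytochrome c oxidase, had 0.13, 0.0060 and 0.036, and CCB256, a cytochrome c maturation protein, had 0.053, 0.083 and -0.15. None of these passed 1.5-fold, and NAD3, COB and CCB256 stood on different sides of 0 on different arrays. The ribosomal proteins had a median of 0.031, 0.067 and 0.0092. RPSL2 held the highest of their mean ratios, with 0.19, 0.034 and 0.042, and RPL2 the lowest, with 0.035, 0.0069 and -0.23. RPL5 had -0.061, 0.14 and -0.0055 and RPS7 had 0.027, 0.10 and 0.024.

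Among the ORFs some small ratios kept one sign with loess. ORF107B (ATMG00200) had 0.020, 0.39 and 0.26, and ORF251 (ATMG01110) had 0.18, 0.15 and 0.22. The unnamed ATMG01280 had 0.26, 0.081 and 0.16, the highest of the normal growth array. Under normal growth ORF107B stood at -0.076 with median centring and at -0.044 with print-block loess. ATMG01280 stood at -0.14 under water stress with median centring. ORF262, with the second highest ratio of recovery, did not keep its sign and had -0.050, 0.13 and 0.24. On the lower side, ORF159 (ATMG01050) had -0.43, 0.086 and -0.34 and ORF215B had -0.35, 0.081 and -0.34. With loess both were thus lower under normal growth and in recovery but not under water stress. With median centring both were lower under water stress too, at -0.41 for ORF159 and -0.997 for ORF215B, and print-block loess gave 0.19 and -0.036. The water stress readings of ORF215B, 300 in wild type and 82.9 in the overexpressor, were under the empty-spot limits. Over all 32 ATMG spots, 10 were higher in the overexpressor on all 3 arrays and 9 were lower on all 3, where 23.3% and 24.2% of all loci were. Across the 32 spots the ratio of water stress and that of recovery correlated at r = 0.578, normal growth and recovery at 0.609, and normal growth and water stress at 0.266. Over all 26017 loci the same values were 0.675, 0.296 and 0.240. The points share probes, spot positions and the dye orientation, so these values are descriptions.

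The difference of the ratio between arrays asks whether the genotype difference was itself different under stress. From normal growth to water stress the median difference over ATMG spots was -0.024 on the log2 scale. Of the 32 spots, 2 were higher by at least 1.5-fold, beside 2.46% of all loci, and 1 was lower, beside 4.64%. ORF199 differed by 1.08 and ORF117 by 0.69, and ORF141 by -0.63. From water stress to recovery none was at least 1.5-fold higher, beside 0.954%, and 2 were lower, beside 1.26%. These were the same ORF199, at -0.91, and ORF117, at -0.65, which share the water stress array with the comparison before. Between recovery and normal growth no ATMG spot differed by 1.5-fold, beside 0.777% higher and 2.65% lower.

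Larger values were found between arrays than between genotypes. These single-channel changes compare different arrays, after scaling to a common intensity distribution, and both genotypes of a comparison share the same spots and slides. Control features, described in the array annotation as Alien oligo controls or randomly generated negative controls, also differed between arrays: their median log2 change from normal growth to water stress was 0.77 in wild type and 0.73 in the overexpressor, with 8 and 6 of 22 features at least 2-fold higher, and 0.89 and 0.78 from normal growth to recovery, with 10 and 7. The part of this shift in the members' values was not tested. From water stress to recovery the control medians were 0.095 and 0.014.

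From normal growth to water stress, ATMG spots lay on both sides of 0 and their median was 0.036 in wild type and 0.11 in the overexpressor, against 0.087 and 0.053 over all loci. In wild type 8 of 32 were at least 2-fold higher, beside 15.7% of all loci, and 5 were at least 2-fold lower, beside 15%. In the overexpressor 7 were higher, beside 13.0%, and 4 lower, beside 13.1%. In both genotypes alike, 7 of 32 were higher and 3 were lower, where 11.6% and 11.7% of all loci were. The 17 nuclear-coded spots of the stretch had medians of 0.61 and 0.38, where 5 spots in wild type were 2-fold higher and 2 were lower, and 2 and 2 in the overexpressor. If each channel was only scaled to its median, the middle of all gene spots itself shifted by 0.94 in wild type and 0.76 in the overexpressor for water stress over normal growth, and by 0.78 and 0.63 for recovery over normal growth. Under that scaling, wild type had 48.0% of all gene spots at least 2-fold higher under water stress and 8.03% lower, where the common distribution gave 15.6% and 15.4%. All changes below are on the common distribution. Under normal growth 24 of the 33 members read below the empty-spot limit in both channels, so many changes start from readings under it: of the members named for changes, those above it were COB, COX3, ATP8, RPL2, ORF102, ORF102B, ORF136A, ORF160 and ORF262.

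The largest single change among members was that of ORF215A (ATMG00910). Its spot read 2986, 9765 and 7679 in wild type and 1895, 7583 and 5811 in the overexpressor, and its log2 change to water stress was 3.22 in wild type and 3.30 in the overexpressor. On the array scales its water stress reading was thus above that of normal growth even before any scaling. ATMG01280 read 338, 913 and 736 in wild type and 301, 481 and 517 in the overexpressor and had a change of 2.18 in wild type and 2.0 in the overexpressor. ATP1, the alpha subunit of ATP synthase, read 1304, 1872 and 1185 in wild type and 822, 1075 and 632 in the overexpressor, and its change was 1.89 in wild type and 1.98 in the overexpressor. The recovery values of all 3, as changes over normal growth, were 3.05 in wild type and 3.08 in the overexpressor for ORF215A, 1.90 in wild type and 1.79 in the overexpressor for ATMG01280 and 1.22 in wild type and 1.06 in the overexpressor for ATP1. These 3 spots were on the higher side in both genotypes after water stress and in recovery, comparisons that share the normal growth array.

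Other members on the higher side under water stress were ORF251, with 1.86 in wild type and 1.83 in the overexpressor, ORF102B, with 1.84 in wild type and 1.69 in the overexpressor, ORF136B (ATMG01310), with 1.40 in wild type and 1.62 in the overexpressor, and ORF107B, with 1.22 in wild type and 1.59 in the overexpressor. ATP6 had 1.47 in wild type and 0.89 in the overexpressor, past 2-fold in wild type, and the overexpressor value was 1.08 with median scaling, while the difference between the genotypes was not tested. The remaining ATP synthase member, ATP8, was on the other side, with -0.64 in wild type and -0.69 in the overexpressor, so the members of that complex did not share a direction. The ATCG00850 spot was higher in both genotypes, with 1.47 in wild type and 1.20 in the overexpressor.

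In both genotypes, 3 of 32 spots were at least 2-fold lower under water stress. ORF160 read 10693, 995 and 1217 in wild type and 7625, 468 and 887 in the overexpressor, and its log2 change was -2.10 in wild type and -2.05 in the overexpressor. ORF102 read 10671, 1195 and 1155 in wild type and 7622, 544 and 644 in the overexpressor, with a change of -1.80 in wild type and -1.86 in the overexpressor. NAD3 read 1204, 311 and 581 in wild type and 727, 106 and 287 in the overexpressor, with a change of -1.69 in wild type and -1.17 in the overexpressor. Its water stress readings were under the empty-spot limits, and with median scaling the change was -0.43 in wild type and -0.89 in the overexpressor, under 2-fold in both. ORF159, with -1.45 in wild type and -0.94 in the overexpressor, and ORF215B, with -1.05 in wild type and -0.62 in the overexpressor, passed 2-fold in wild type, and COX3, with -0.94 in wild type and -1.06 in the overexpressor, in the overexpressor. With median scaling ORF215B stood at 0.61 in wild type, and ORF159 passed 2-fold in the overexpressor too, at -1.03. Whether the genotypes differed in these 3 was not tested.

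The remaining named members stayed under 2-fold from normal growth to water stress in both genotypes on the common distribution. COB had 0.49 in wild type and 0.34 in the overexpressor, and CCB256 had 0.17 in wild type and 0.20 in the overexpressor, which became 2.34 and 1.17 with median scaling. All 4 ribosomal proteins were in this range: RPL5 had -0.48 in wild type and -0.29 in the overexpressor (0.73 and 0.040 with median scaling), RPL2 0.020 in wild type and -0.0080 in the overexpressor (0.58 and 0.74 with median scaling), RPS7 0.13 in wild type and 0.21 in the overexpressor and RPSL2 0.42 in wild type and 0.27 in the overexpressor. Among the ORFs, ORF136A had 0.66 in wild type and 0.85 in the overexpressor, ORF262 had 0.53 in wild type and 0.71 in the overexpressor, ORF313 (ATMG00590) had -0.73 in wild type and -0.96 in the overexpressor, and ORF109 (ATMG00530) had -0.54 in wild type and -0.61 in the overexpressor. ORF122A (ATMG00470), the neighbour of ATP8 by code, had -0.18 in wild type and -0.23 in the overexpressor. ORF199 and ORF117 stood on different sides of 0 in the genotypes, with -0.83 in wild type and 0.25 in the overexpressor for ORF199 and -0.20 in wild type and 0.50 in the overexpressor for ORF117, but with median scaling all of these were above 0.

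Fewer spots passed 2-fold from water stress to recovery. In wild type 1 ATMG spot was at least 2-fold higher, beside 3.97% of all loci, and 1 was lower, beside 4.08%, and in the overexpressor the counts were also 1 and 1, beside 3.13% and 3.69%. The higher spot was NAD3 in both genotypes, at 1.79 in wild type and 1.25 in the overexpressor (0.96 in wild type with median scaling), from water stress readings under the empty-spot limits, and the lower one was ORF152B (ATMG01140), at -1.58 in wild type and -1.31 in the overexpressor. ORF152B read 4470.2, 1554 and 573 in wild type and 2964, 801 and 376 in the overexpressor. NAD3 thus stood at 0.10 in wild type and 0.084 in the overexpressor in recovery over normal growth, or at 0.53 and 0.34 with median scaling, whereas ORF152B stood at -1.53 in wild type and -1.29 in the overexpressor. ORF159 and RPSL2 were the next highest from water stress to recovery in wild type, at 0.98 and 0.85, and ORF262 and ORF102B the next lowest, at -0.91 and -0.78. For the overexpressor the next highest were RPSL2 and ORF160, at 0.86 and 0.62, and the next lowest ATP1 and ORF262, at -0.92 and -0.80. With median scaling ATP1 stood at -1.01 in the overexpressor, and ORF262 at -1.08 in wild type and -1.36 in the overexpressor.

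From normal growth to recovery 8 ATMG spots were at least 2-fold higher in wild type, beside 16.9% of all loci, and 3 lower, beside 15.9%. In the overexpressor the counts were 8 and 3, beside 14.6% and 14.4%, and the same 8 and 3 spots passed in both genotypes, where 13.5% and 13.2% of all loci did. The 8 were ORF215A, ATMG01280, ORF107B, RPSL2, ATP1, ORF251, ORF102B and ORF136B. After ORF215A and ATMG01280, the highest was ORF107B, with 1.49 in wild type and 1.73 in the overexpressor, and RPSL2 had 1.28 in wild type and 1.13 in the overexpressor. The 3 lower spots were ORF102, with -1.76 in wild type and -1.86 in the overexpressor, ORF160, with -1.68 in wild type and -1.43 in the overexpressor, and ORF152B. Among the ribosomal proteins RPSL2 alone passed 2-fold on the common distribution. RPL5 had -0.32 in wild type and -0.27 in the overexpressor and RPL2 had 0.41 in wild type and 0.14 in the overexpressor. RPS7 had 0.77 in both genotypes, which became 1.13 in wild type and 1.05 in the overexpressor with median scaling. CCB256, ORF106G and the ATCG00850 spot also passed 2-fold in both genotypes under that scaling. It put 12 ATMG spots at least 2-fold higher in wild type, beside 42.4% of all gene spots, and 11 in the overexpressor, beside 35.8%. The lower counts stayed at 3, beside 9.75% and 11.6%.

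**Figure D3:**
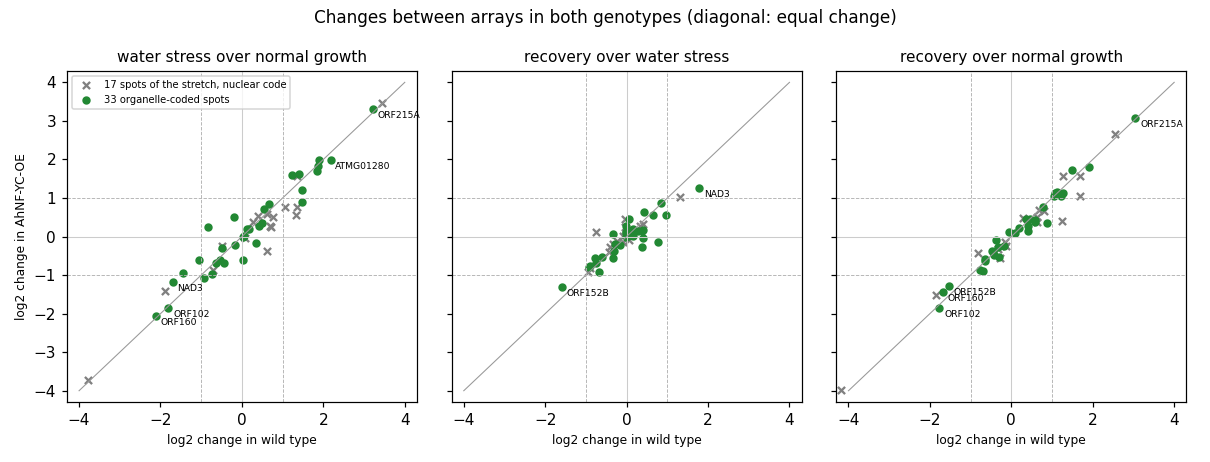
Log2 change in wild type (x axis) against that in the overexpressor (y axis) for the 33 organelle-coded spots (points) and the 17 nuclear-coded spots of the chromosome 2 stretch (crosses), for 3 pairs of arrays. The diagonal marks equal change, dashed lines mark 2-fold, and ORF215A lies at 3.22 and 3.30 for water stress over normal growth.

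Both the members and the other loci of the chromosome 2 stretch spanned wide changes. Among the nuclear-coded spots of the stretch, AT2G07721 was higher under water stress by 3.44 in wild type and 3.48 in the overexpressor, and AT2G07785 stood at -3.77 and -3.71. Members that are adjacent along the stretch were also set side by side. Over the 30 pairs of adjacent members, the change to water stress correlated at r = -0.10 in wild type and -0.13 in the overexpressor, a description over pairs that share members. RPL5 and COB, adjacent on chromosome 2, had wild-type changes of -0.48 and 0.49. NAD3 and RPSL2, whose ATMG codes also follow each other, had -1.69 and 0.42. The median absolute difference in that change was 1.53 between adjacent members and 1.20 between any pair of members in wild type, and 1.14 and 1.13 in the overexpressor. For the genotype ratio it was 0.208 and 0.257 under water stress, and 0.15 and 0.205 in recovery.

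**Figure D4:**
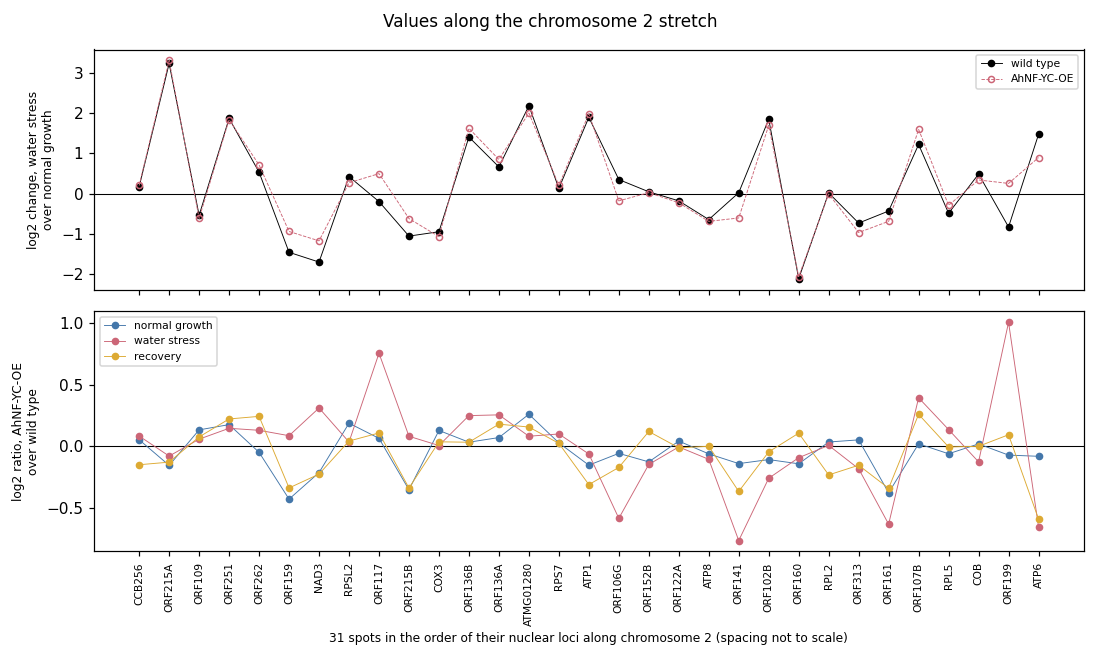
Values of the 31 ATMG spots with a chromosome 2 code, in the order of their nuclear loci with spacing not to scale: the log2 change from normal growth to water stress in each genotype (top) and the log2 ratio (overexpressor over wild type) on each array (bottom). Adjacent spots differ, as NAD3 (-1.69) and RPSL2 (0.42) do in wild type, and the widest excursion of the ratio is ORF199 under water stress (1.01).

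Organelle genes are transcribed with proteins encoded in the nucleus, and 18 of 22 listed nuclear genes of organelle transcription (sigma factors, polymerase-associated proteins and the polymerase SCA3) could be matched to a spot. Their median log2 ratios (overexpressor over wild type) were -0.021, 0.072 and 0.093. None passed 1.5-fold under normal growth. FLN2 (AT1G69200), a protein of the plastid transcription complex, passed it under water stress, with 0.086, -0.60 and 0.10 on the 3 arrays. Its overexpressor reading under water stress, 115, was under the empty-spot limit of that channel, 222. PRIN2 (AT1G10522), which acts in plastid gene expression, passed it in recovery, with -0.032, -0.58 and -0.74. The list thus had 1 of 18 lower under water stress, beside 3.53% of all loci, and 1 of 18 lower in recovery, beside 1.67%.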

How the data were processed

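Spot mean and local background intensities were used as deposited, per the file headers. How the authors scanned the arrays is not stated in labels or headers. The members and lists were chosen with earlier results of these data known. Background was corrected with normexp (offset 50) and ratios were normalized by loess inside every array (controls and empty spots had weight 0) in limma 3.58.1 (R 4.3.3). Single channels were then set to a common distribution (Aquantile). The loess step was tested on simulated data. A locus was kept where its brighter channel exceeded the local background mean by 2 SD. For loci with several spots, the brightest was taken. Codes were matched to a RefSeq gene table (TAIR10.1). Its start coordinates set the extent of the chromosome 2 stretch and the order of the members along it. Counts used 1.5-fold for ratios and 2-fold for changes between arrays. Values are given for members past 1.5-fold, the 3 highest and 3 lowest ratios per array and changes per comparison, the extremes of each role, and COB and ATP1. Of the markers, 2 pollen genes had no matched spot, and the 1 measured stood at percentile 88.6, 95.9 and 97.3 in wild type. Of the 22 listed nuclear genes, 4 were not matched. Intensity over background was 14.9 to 85.9 by channel, and precision is limited by there being 1 array a condition.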

Additional observations from a re-analysis of the deposited data

Results flagged for a closer look

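ORF199 (ATMG00370) stood on different sides of 0 in different conditions: its log2 ratio (AhNF-YC-OE over wild type) was 1.01 under water stress and -0.072 under normal growth, with 1 array in each, and in recovery it was 0.093. The difference between conditions was not tested. Its water stress readings of 249 and 144 were below the 95% limit of empty spots in both channels.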

How the results depend on the processing

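No paired analysis was possible because each condition had 1 array and so no replicate numbers to block on, and the sharing of an array by both genotypes is already in the ratio. With median centring the median ATMG ratio stood at -0.090 (normal growth), -0.15 (water stress) and -0.14 (recovery). The fit of the mean ratio over the 3 arrays called 6 ATMG spots with median centring and 0 under each of the other settings, which include leaving out each array. Under water stress the 2 higher spots became 0 with print-block loess, 4 with the scanner tables' net intensities and 0 among spots over the empty-spot limit, and the 4 lower ones became 9 with median centring, 1 with print-block loess and 2 with net intensities. In recovery the 1 lower spot became 6 with median centring and 0 with print-block loess or net intensities. Shares of all loci past 1.5-fold under these other settings are not given here. Median centring turned ORF199 to -0.022 and ORF117 to -0.049 under water stress. For changes between arrays, median scaling of each channel moved the wild-type ATMG median from normal growth to water stress to 0.75. That of all gene spots was then 0.94. The 5 lower wild-type spots became 3, beside 8.03% of all gene spots, and the 7 higher AhNF-YC-OE spots became 11, beside 40.6%. ORF215B in wild type moved to 0.61. From water stress to recovery median scaling gave 0 higher and 2 lower spots in wild type, beside 2.12% and 6.37% of all gene spots. In AhNF-YC-OE it gave 3 lower, beside 7.03%. Quantile normalization of 6 channels gave 2 higher in wild type from water stress to recovery, beside 4.53%. Plain background subtraction gave 2 higher in each genotype from water stress to recovery, beside 6.01% (wild type) and 4.36% (AhNF-YC-OE) of all gene spots. For AhNF-YC-OE it gave 7 lower from normal growth to water stress, beside 15.6%, and 5 lower from normal growth to recovery, beside 17.4%. The cause was not tested. Averaging probes or dropping the filter changed nothing, since each member had 1 spot above background. The authors' deposited normalized ratios were not run, as those tables list 0 of these codes. The net intensities, the fit of the mean ratio, and leaving out ORF102, were added after seeing the data.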
